A study of Mus musculus with 82 samples.

Results

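The comparison set naive CD4 T cells of KK.Cg-Ay/J and DDY/JclSidSeyFrkJ mice, both strains of Japanese laboratory stock, against the other strains derived from Mus musculus domesticus. The arrays were chosen by their genetic background labels alone: 4 of the 82 arrays in the series, 2 of each strain. They were compared with 70 arrays of 34 other domesticus-derived strain groups, called the reference strains here, and 8 arrays of JF1/Ms, MSM/Ms, PWD/PHJ and CAST/EiJ stayed out of the reference. Each array held RNA of CD3+ CD4+ CD62L+ spleen cells, sorted away from CD25+ cells and other blood cells, from a pool of male mice labelled as 6 weeks old. The labels name no treatment. The values are probe set intensities in linear units, each summarising many short probes of a transcript, and differences are given on the log2 scale.

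KK mice are known as a model of obesity and type 2 diabetes. The Ay allele that this line carries is a dominant change at the agouti locus, where a deletion places agouti under the promoter of the neighbouring gene Raly, and removes the coding parts of Raly and Eif2s2 from that chromosome. DDY mice come from an outbred stock widely used in Japanese laboratories. Naive CD4 T cells circulate between blood and lymphoid organs until they meet antigen, and keep a quiescent programme with high levels of T cell receptor, homing receptor and survival receptor genes. The labels do not say how many animals in the KK.Cg-Ay/J pools carried Ay.

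The 4 arrays had the T cell profile that the labels name. The mean log2 intensity of 23 naive T cell genes was 11.39 and 11.43 on the KK.Cg-Ay/J arrays and 11.37 and 11.45 on the DDY/JclSidSeyFrkJ arrays, within the reference range of 11.27 to 11.54. Over 20 B cell genes the 4 arrays lay between 6.13 and 6.21, close to the lowest reference strain at 6.09, and no gene of the B cell, erythroid or platelet lists passed the threshold in any of the comparisons. Genes of other lists did. Over 8 CD8 T cell genes the mean was 7.04 and 7.02 on the KK.Cg-Ay/J arrays and 7.14 and 7.15 on the DDY/JclSidSeyFrkJ arrays, inside the reference range of 6.66 to 7.4, but Cd8b1, a chain of CD8, and Klrd1, a receptor chain that is also on the natural killer list, were higher in DDY/JclSidSeyFrkJ by 0.47 and 1.23 on the log2 scale (limma, adjusted p = 0.00145 and 3.46e-07). Over 18 myeloid genes the means lay between 6.42 and 6.49, inside the reference range of 6.35 to 6.92, with Ifi30 higher by 0.97 and Cst3 lower in DDY/JclSidSeyFrkJ, and Ctss lower in KK.Cg-Ay/J with a log2 difference of -0.48. Of the dendritic cell genes, Ccr9, which is also a homing receptor of T cells, was higher in KK.Cg-Ay/J by 1.19, and Crtam of the CD8 list by 0.48. Their part in the results below was not tested. Among 16 neutrophil genes only Cxcr2 was called, and no gene of that list had a mean above the median of all values, 6.82. The arrays of 1 strain correlated at 0.9936 in both strains, against a median of 0.9953 over same-strain pairs and 0.9876 over arrays of different strains.

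Agouti itself was not raised in KK.Cg-Ay/J cells. The intensity of a, the agouti gene, was 76.8 and 53.7 on the KK.Cg-Ay/J arrays and 70.5 and 63.6 on the DDY/JclSidSeyFrkJ arrays, where reference strains ran from 56.3 to 81.0. Raly, an RNA-binding protein gene, stood at 1054 and 1037 in KK.Cg-Ay/J, within the reference range of 736 to 1134. Both probe sets of Eif2s2, a translation initiation factor subunit, also lay inside the reference range in KK.Cg-Ay/J. None of these probe sets passed the threshold (limma, adjusted p of 0.6 or more in KK.Cg-Ay/J). A rise of agouti or a fall of Raly or Eif2s2 was thus not seen. As the number of Ay carriers in the pools is not stated, the arrays could not settle the Ay label.

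Distance from the rest was measured in 3 ways. The first is limma's contrast of each strain's 2 arrays with the mean of the 34 reference strains, with the spread taken between arrays of 1 strain and a threshold of 0.05 on p-values that were adjusted (Benjamini-Hochberg) across the 24922 probe sets. The second is limma on strain means, with the 2 strains as 1 group of 2 against 34, in which the spread is that between strains. The third, a description without a test, asks whether both strain means lie outside the whole range of the 34 reference strain means. A gene far from a reference mean in the first measure can still lie within the reference range, because reference strains differ among themselves.

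Few genes stood apart in the pair once the spread between strains was counted. On strain means 15 of 24922 probe sets (0.0602 percent) passed the threshold, 12 higher and 3 lower, and they named 13 genes. Of these probe sets, 11 also passed the threshold the same way in both strains on their own. In all, 816 of the 24922 probe sets had an unadjusted p under 0.05, fewer than evenly spread p-values would give. All 4 arrays lay outside the range of every reference array in 3 probe sets (0.012 percent), those of Smad1, Uchl3 and the uncharacterised gene 1700020D05Rik, the last of which was named after its values were seen.

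Smad1, the transcription factor that carries signals of bone morphogenetic protein receptors to the nucleus, was low in both strains. Its intensity was 69.5 and 66.9 in KK.Cg-Ay/J and 94.2 and 78.7 in DDY/JclSidSeyFrkJ, whereas reference strain means ran from 177 to 241 with a median of 209. The 4 arrays therefore lay below every reference strain with a wide gap, and the reference strains were close to one another. The pair differed from the reference by -1.44 on the log2 scale (SE 0.09, limma on strain means, adjusted p = 2.82e-14), a 2.72-fold lower level. MSM/Ms and JF1/Ms, derived from Japanese wild and fancy mice, had Smad1 intensities of 93.3 and 85.4, also below all 34.

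Uchl3, 1700020D05Rik and Slpi were high in both strains, with no overlap with the reference strain means. Uchl3, which encodes an enzyme that removes ubiquitin, had intensities of 791 and 869 in KK.Cg-Ay/J and 752 and 723 in DDY/JclSidSeyFrkJ, against 192 to 509 in the reference. The pair was 1.97-fold higher (log2 difference 0.98, SE 0.19, limma on strain means, adjusted p = 0.0285), and MSM/Ms and JF1/Ms stood at 210 and 220, near the low end of the reference. 1700020D05Rik stood at 335 and 379 in KK.Cg-Ay/J and at 413 and 538 in DDY/JclSidSeyFrkJ against 69.6 to 206 in the reference, a 4.55-fold difference (limma on strain means, adjusted p = 2.64e-10). Slpi, a secreted inhibitor of leukocyte proteases, stood at 410 and 451 in KK.Cg-Ay/J and at 188 and 189 in DDY/JclSidSeyFrkJ, above a reference range of 108 to 172. Both strains exceeded the reference in Slpi, but by different amounts: the difference from the reference mean was 1.71 in KK.Cg-Ay/J and 0.52 in DDY/JclSidSeyFrkJ (SE 0.11 each), and the direct contrast was 1.19 (limma, adjusted p = 9.36e-08).

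Cldn10, a claudin of cell junctions, followed the same order with a larger gap. One probe set gave 493 and 530 in KK.Cg-Ay/J and 88.3 and 100 in DDY/JclSidSeyFrkJ, where reference strains had a median of 46.1 and reached 143 in WSB/EiJ. DDY/JclSidSeyFrkJ was therefore inside the reference range and KK.Cg-Ay/J far above it. A second Cldn10 probe set gave 379 and 346 in KK.Cg-Ay/J and 72.0 and 83.7 in DDY/JclSidSeyFrkJ. Cldn10 stood at 539 in MSM/Ms and 678 in JF1/Ms on the first probe set, and Slpi at 570 and 554, levels that no reference strain reached in either gene.

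Other genes called in the same test differed by less. Wee1, the kinase that holds cells back from mitosis, stood at 230 and 257 in KK.Cg-Ay/J and 146 and 162 in DDY/JclSidSeyFrkJ against a reference range of 69.6 to 146 (log2 difference of the pair 0.99, SE 0.17, adjusted p = 0.00533). Pid1, a phosphotyrosine-binding adaptor linked to insulin signalling in fat and muscle, stood at 115 and 123 and at 86.1 and 102, against 55.6 to 85.4 (log2 difference 0.62, SE 0.11, adjusted p = 0.0118). In both genes the means of both strains lay above the reference range. Ascl3, a basic helix-loop-helix transcription factor, was lower, at 60.3 and 56.2 in KK.Cg-Ay/J and 73.6 and 58.8 in DDY/JclSidSeyFrkJ against 73.8 to 113 (adjusted p = 0.023, and 0.191 without DDY/JclSidSeyFrkJ replicate 2). M1ap and Ncmap were higher with adjusted p-values of 0.038 and 0.0478, and in each the arrays of at least 1 strain overlapped the reference range. The call of Ncmap was lost in 29 of 34 fits that left out 1 reference strain (adjusted p from 0.0516 to 0.0632), and that of M1ap in 2. The call of Ascl3 was lost under quantile normalization and median centring (limma, adjusted p = 0.097 and 0.0663), that of Ncmap without either replicate 2 of the pair, at 0.0846 and 0.0805, and that of M1ap without DDY/JclSidSeyFrkJ replicate 2, at 0.0502.

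The remaining called genes of the pair came from 1 strain alone. Sdhd, a membrane anchor subunit of succinate dehydrogenase in the respiratory chain, stood at 1648 and 1750 in DDY/JclSidSeyFrkJ, and at 401 and 486 in KK.Cg-Ay/J, inside the reference range of 345 to 573. Pkig, an inhibitor of protein kinase A, stood at 220 and 265 in KK.Cg-Ay/J and at 49.1 and 41.6 in DDY/JclSidSeyFrkJ, where the reference ended at 64.6. Pvt1, a long non-coding RNA next to Myc, stood at 55.5 and 61.8 in DDY/JclSidSeyFrkJ and at 254 and 327 in KK.Cg-Ay/J against 220 to 449. These 3 genes passed the threshold on strain means although the other strain of the pair was like the reference: the mean difference of the pair was carried by 1 strain. Their adjusted p-values on strain means (limma) were 0.0199 for Sdhd, 0.044 for Pkig and 0.038 for Pvt1, and became 0.0585 and 0.0504 without KK.Cg-Ay/J replicate 2 for the first 2, 0.0809 without DDY/JclSidSeyFrkJ replicate 1 for Pkig, and 0.108 without KK.Cg-Ay/J replicate 1 for Pvt1. Leaving out 1 reference strain ended the call of Pkig in 23 of 34 fits (adjusted p from 0.0504 to 0.0582) and that of Pvt1 in 3.

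**Figure D1:**
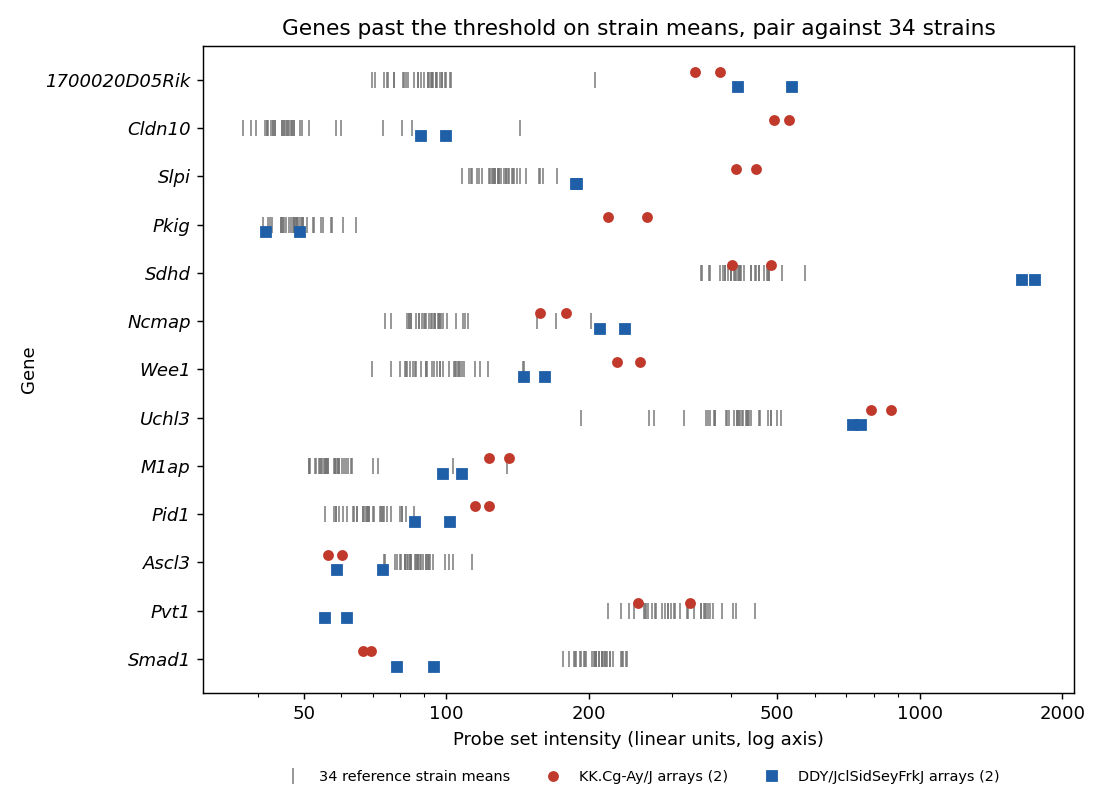
Probe set intensity (log axis) of the genes past the threshold on strain means, for the arrays of KK.Cg-Ay/J (circles, 2), DDY/JclSidSeyFrkJ (squares, 2) and the 34 reference strain means (ticks); for Cldn10, 1 of its 2 probe sets is drawn. Smad1 lies at 66.9 to 94.2 in the pair, below the lowest reference mean of 177, whereas Sdhd is high in DDY/JclSidSeyFrkJ alone and Pkig in KK.Cg-Ay/J alone.

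Both strain means lay beyond the reference range in 69 probe sets (0.277 percent), 27 above it (0.108 percent) and 42 below it (0.169 percent). Of these, 23 also passed the threshold the same way in both strains. Fth1, the heavy chain of the iron store ferritin, stood at 7276 and 7244 in KK.Cg-Ay/J and 7560 and 6936 in DDY/JclSidSeyFrkJ against 4690 to 6763. The shift was small and alike in both strains, 0.33 on the log2 scale in each (SE 0.09, limma, adjusted p = 0.0222 and 0.031). Neto2, an auxiliary subunit of kainate receptors, stood at 122 and 124 and at 133 and 148 against a reference range of 42.2 to 108, and its shared call was lost without KK.Cg-Ay/J replicate 2 (limma, adjusted p = 0.0744). Slc14a1, a urea transporter, stood at 1493 and 1728 in KK.Cg-Ay/J and 959 and 972 in DDY/JclSidSeyFrkJ against 379 to 891. Its near neighbour Pard6g, a cell polarity gene, stood at 144 and 167 and at 171 and 205 against 72.1 to 141. On strain means none of Fth1, Neto2, Slc14a1 and Pard6g passed the threshold (limma, adjusted p = 0.537, 0.31, 0.119 and 0.135).

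The genes named below the range were as follows, besides Smad1, Ascl3, Ppp2r5c and Ms4a6c. Sun1, a protein of the inner nuclear membrane, stood at 319 and 342 in KK.Cg-Ay/J and 334 and 373 in DDY/JclSidSeyFrkJ against 370 to 600 (log2 differences -0.51 and -0.41, SE 0.09, limma, adjusted p = 3.87e-05 and 0.0013). Mmgt2, a membrane magnesium transporter, stood at 371 and 381 and at 378 and 347 against 402 to 691, below the reference on all 4 arrays. Alcam, a ligand of the T cell surface protein CD6, lay just below the reference minimum of 66.6 with strain means of 64.4 and 64.6, and did not pass the threshold in either strain (limma, adjusted p = 0.112 and 0.158). Col20a1, a collagen gene, passed it in KK.Cg-Ay/J alone (limma, adjusted p = 0.00557, against 0.0599 in DDY/JclSidSeyFrkJ). On strain means Sun1, Mmgt2, Alcam and Col20a1 did not pass the threshold (limma, adjusted p = 0.609, 0.974, 0.984 and 0.984). Neither did Ppp2r5c and Ms4a6c (limma on strain means, adjusted p = 0.0546 and 0.984).

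Measured by the spread between arrays of a strain, far more genes differed. In KK.Cg-Ay/J 1015 probe sets (4.07 percent) passed the threshold, 574 higher (2.3 percent) and 441 lower (1.77 percent). DDY/JclSidSeyFrkJ had 729 (2.93 percent), 500 higher (2.01 percent) and 229 lower (0.919 percent). A difference of at least 2-fold was seen in 101 of the former and 82 of the latter. The median log2 difference over all probe sets was -0.03 in KK.Cg-Ay/J and -0.01 in DDY/JclSidSeyFrkJ.

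These counts rest on both arrays of a strain. KK.Cg-Ay/J had 491 called probe sets without its replicate 1 and 334 without its replicate 2. DDY/JclSidSeyFrkJ had 239 without its replicate 2 and 493 without its replicate 1. A strain left with 1 array has a larger standard error by construction, and the lone array is then assumed to vary like those of other strains.

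Called the same way in both strains were 197 probe sets (0.79 percent), 116 higher (0.465 percent) and 81 lower (0.325 percent), which named 147 genes. Another 95 (0.381 percent) were called in opposite ways, 28 of them higher in KK.Cg-Ay/J and 67 higher in DDY/JclSidSeyFrkJ. Both strains were measured against the same 34 reference strains, so their differences are not independent of each other. The shared count was 103 without KK.Cg-Ay/J replicate 2, 126 without DDY/JclSidSeyFrkJ replicate 1 and 92 without DDY/JclSidSeyFrkJ replicate 2.

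**Figure D2:**
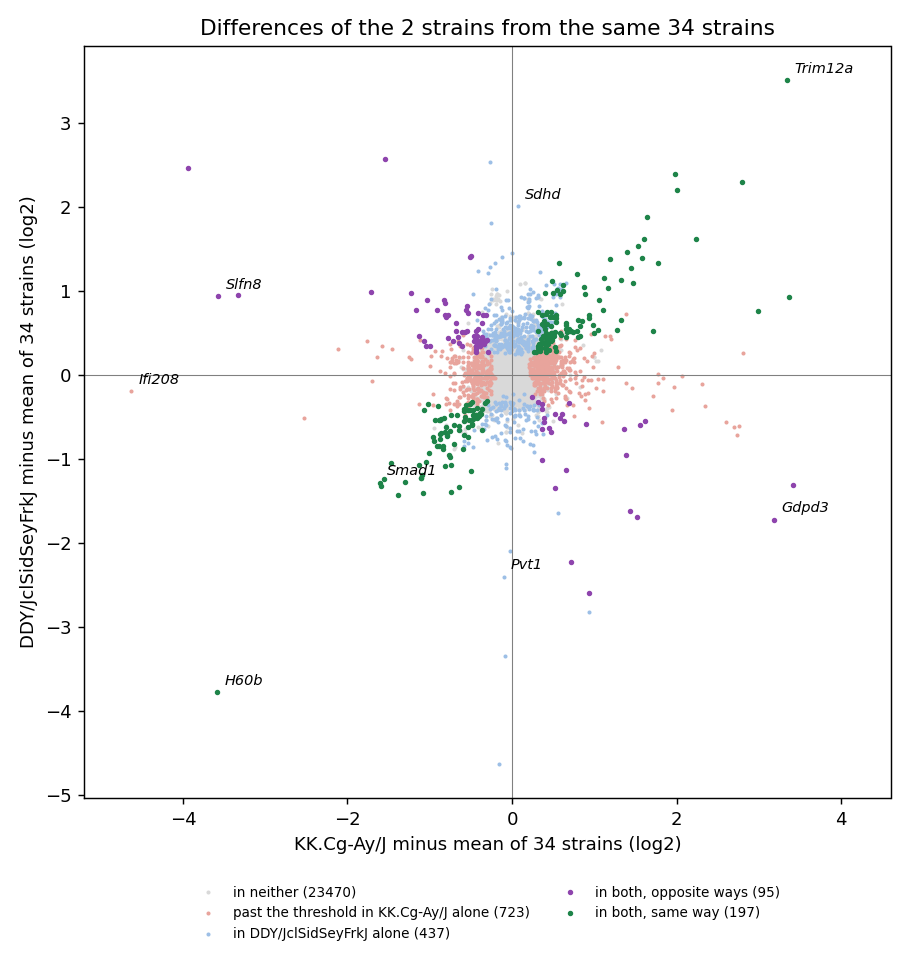
Log2 difference from the mean of the 34 reference strains in KK.Cg-Ay/J (horizontal axis) and DDY/JclSidSeyFrkJ (vertical axis), 1 point per probe set, coloured by the strain in which it passed the limma threshold. The 197 probe sets called the same way in both lie in the upper right and lower left, and the 95 called in opposite ways lie in the upper left and lower right; both axes use the same reference arrays.

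Trim12a, of the tripartite motif family that holds antiviral genes, led the shared higher genes by the smaller of its 2 differences. It stood at 1048 and 1345 in KK.Cg-Ay/J and 1440 and 1245 in DDY/JclSidSeyFrkJ against a reference median of 49.7, with log2 differences of 3.34 and 3.51 (SE 0.13 each, limma, adjusted p = 2.18e-26 and 1.03e-26). Trim30d, its near neighbour in gene order, stood at 198 and 258 and at 236 and 280 against a median of 27.3. Neither gene was outside the reference range: 4 reference strains matched or exceeded the lower strain mean of the pair in Trim12a and 7 did in Trim30d, and MA/MyJ had the highest level of both. The high levels of the pair were thus also seen in a minority of reference strains.

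Il10ra, the ligand-binding chain of the interleukin 10 receptor, stood at 725 and 738 in KK.Cg-Ay/J and 571 and 719 in DDY/JclSidSeyFrkJ against a reference median of 268, with 2 reference strains at or above the pair (log2 differences 1.32 and 1.13, SE 0.09, limma, adjusted p = 1.6e-16 and 6.69e-14). MSM/Ms and JF1/Ms were higher still in Il10ra, at 1258 and 1184. Cpm, the membrane enzyme carboxypeptidase M, stood at 1138 and 1094 and at 715 and 876 against a median of 126. KK.Cg-Ay/J exceeded every reference strain in Cpm, and 2 reference strains stood above DDY/JclSidSeyFrkJ. These were the group titled C57BR, the highest at 841, and C57BL/6J. NOR/LtJ, C57L/J, C57BL/10J and C57BLKS/J were also high, far above the remaining reference strains. DDY/JclSidSeyFrkJ thus lay among a high set of reference strains in Cpm, and KK.Cg-Ay/J above that set. On strain means Cpm did not pass the threshold (limma, adjusted p = 0.541). Cyp2r1, which starts the activation of vitamin D, stood at 140 and 186 and at 115 and 122 against a median of 31.9.

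Kcnj16, an inward rectifier potassium channel gene, stood at 159 and 236 in KK.Cg-Ay/J and 141 and 160 in DDY/JclSidSeyFrkJ against a median of 61.0. Syt14, a synaptotagmin gene, stood at 195 and 242 and at 176 and 222 against 79.0. KK.Cg-Ay/J exceeded every reference strain in Kcnj16, and the other strain means of these genes lay inside the reference range. Trav14-1, a T cell receptor alpha variable segment, stood at 1092 and 1415 and at 728 and 899 against a median of 701. The KK.Cg-Ay/J mean of 1243 was just above the highest reference strain at 1240, DDY/JclSidSeyFrkJ lay inside the range with 11 reference strains above it, and reference strains reached down to 13.2 in SWR/J. A second Trav14-1 probe set was not called in either strain. For Ctse, the protease cathepsin E, the 4 arrays lay between 4596 and 5046, with 21 of the 34 reference strains above KK.Cg-Ay/J and 19 above DDY/JclSidSeyFrkJ.

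H60b, a ligand of the activating receptor NKG2D on natural killer and T cells, had the largest shared decrease by the smaller of its 2 differences. Its intensity was 19.2 and 19.4 in KK.Cg-Ay/J and 15.1 and 18.9 in DDY/JclSidSeyFrkJ against a reference median of 292, with log2 differences of -3.58 and -3.77 (SE 0.21, limma, adjusted p = 2.2e-19 and 2.95e-20). The pair was not alone: 3 reference strains lay at or below its higher strain mean, and CBA/CaJ had the lowest at 16.7. MSM/Ms and JF1/Ms had H60b intensities of 180 and 212.

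Ms4a6c, a tetraspan membrane protein gene, stood at 373 and 375 in KK.Cg-Ay/J and 387 and 378 in DDY/JclSidSeyFrkJ, below all 34 reference strains, which ran from 396 to 4316. Its neighbour Ms4a4b stood at 1596 and 1652 and at 1592 and 1916 against a median of 3191. Nt5e, the surface enzyme CD73 that turns AMP into adenosine, stood at 100 and 97.4 and at 79.7 and 78.7 against a median of 187. Rcan3, an inhibitor of the phosphatase calcineurin, stood at 169 and 153 in KK.Cg-Ay/J and 198 and 235 in DDY/JclSidSeyFrkJ against a median of 470, with a larger decrease in KK.Cg-Ay/J (direct contrast -0.42, SE 0.11, limma, adjusted p = 0.0225).

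H4c4, a histone H4 gene, stood at 1684 and 1665 in KK.Cg-Ay/J and 1820 and 2230 in DDY/JclSidSeyFrkJ against a reference median of 6620. Clic4, an intracellular chloride channel protein, stood at 133 and 124 and at 152 and 122 against 274. Nat8f4, an acetyltransferase gene, stood at 72.2 and 54.6 and at 75.5 and 55.3 against 131. Zbtb8a, a zinc finger gene, lay between 110 and 129 on the 4 arrays against 264. In each of these 4 genes, 2 to 6 reference strains lay at or below the higher of the pair's strain means. Nat8f4 lost its shared call without replicate 2 of either strain (limma, adjusted p = 0.0835 and 0.201).

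Ppp2r5c, a regulatory subunit of protein phosphatase 2A, stood below every reference strain mean as strain means of 270 and 285 against 300 to 695. That held for 1 probe set of the gene. Of 3 other Ppp2r5c probe sets, none was called in KK.Cg-Ay/J and 1 was called in DDY/JclSidSeyFrkJ, with a log2 difference of -0.39 (limma, adjusted p = 0.0233). Aass, an enzyme of lysine breakdown, and Slc15a2, a peptide transporter, were called lower but lay close to the reference medians of 28.9 and 34.1. In both, a few very high reference strains, up to 4592 for Aass in MA/MyJ and 606 for Slc15a2 in SWR/J, raised the reference mean. Slc15a2 lost its shared call without any 1 of the 4 arrays (limma, adjusted p from 0.0687 to 0.62), and the named probe set of Ppp2r5c without KK.Cg-Ay/J replicate 1 (0.0524).

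**Figure D3:**
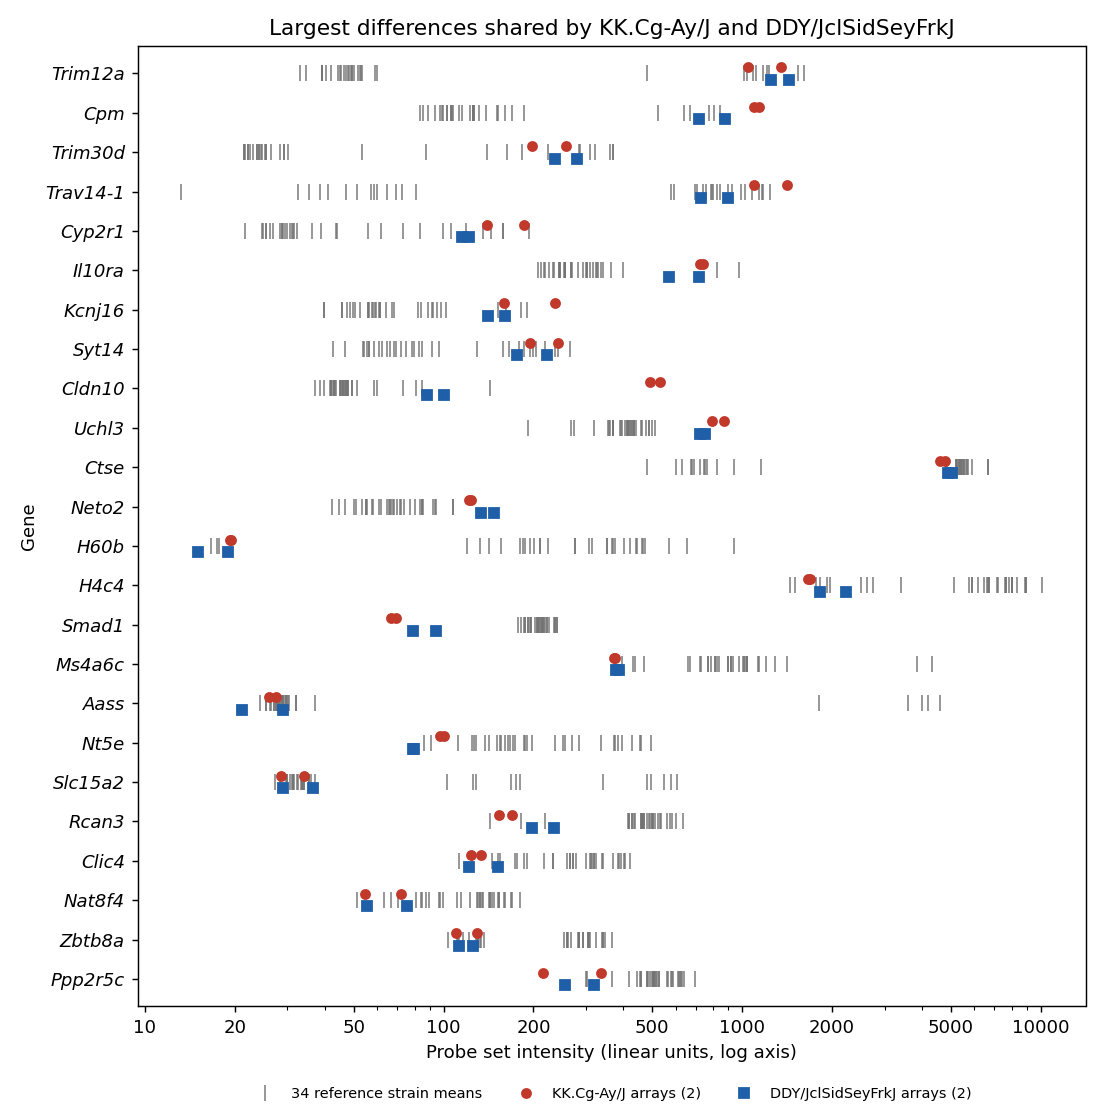
Probe set intensity (log axis) of the 12 genes with the largest shared increases and the 12 with the largest shared decreases, for the arrays of KK.Cg-Ay/J (circles, 2), DDY/JclSidSeyFrkJ (squares, 2) and the 34 reference strain means (ticks). Smad1, Ms4a6c, Uchl3 and Neto2 separate from the reference, whereas in Trim12a, H60b and Ctse the pair lies among one of 2 sets of reference strains.

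Some shared genes were neighbours. With at most 3 measured genes between members, 32 of the 147 shared genes fell into 15 runs in gene order. The longest held Clic4, Ncmap, Rcan3 and Nipal3, of which Ncmap was higher and the other 3 lower. Other runs paired Cd3g with Cd3d, Ms4a4b with Ms4a6c, Trim12a with Trim30d, and Slc14a1 with Pard6g, the members of each changing the same way. Wee1 ran with Swap70, both higher, and Ascl3 with Tmem9b, both lower. In other runs the members went opposite ways. Trav14-1 was higher and Trav12-2 lower, and Cep162 was higher and Nt5e lower. Likewise Rgl1 and Wrn were higher, and their respective neighbours 1700025G04Rik and Fut10 lower.

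Cd3g and Cd3d of the T cell receptor complex and Il2ra and Il2rb of the interleukin 2 receptor were lower in both strains. The counts of list members below are to be read against all 12423 probe sets with a mean above the median of all values. Of these, 3.79 percent were called higher and 3 percent lower in KK.Cg-Ay/J, and 2.82 percent higher and 1.37 percent lower in DDY/JclSidSeyFrkJ. Cd3g, a signalling chain of the receptor, stood at 4562 and 4521 in KK.Cg-Ay/J and 4466 and 4041 in DDY/JclSidSeyFrkJ against a reference median of 6685 (log2 differences -0.49 and -0.59, limma, adjusted p = 2.41e-05 and 6.96e-07). Cd3d, another chain, stood at 814 and 916 and at 772 and 859 against 1139. In the list of 29 measured receptor complex and signalling genes, 3 were called higher and 3 lower in KK.Cg-Ay/J, and 0 higher and 3 lower in DDY/JclSidSeyFrkJ, with medians of 0.12 and -0.03. The third DDY/JclSidSeyFrkJ gene was Cd3e, at 5232 and 5743 against a median of 6945. The KK.Cg-Ay/J genes outside the complex were Themis, Ptpn22 and Ptpn6, all higher, and Ubash3a, lower, regulators of receptor signalling. In KK.Cg-Ay/J 2 genes of the list were called higher and 1 lower after median centring of the arrays, and 0 higher and 1 lower with either of its arrays left out. The 3 lower calls in DDY/JclSidSeyFrkJ became 1 without its replicate 1.

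Among 28 cytokine receptor genes, KK.Cg-Ay/J had 3 higher and 3 lower and DDY/JclSidSeyFrkJ 1 higher and 2 lower, where the shares over bright probe sets were 3.79 and 3 percent and 2.82 and 1.37 percent. The lower count in KK.Cg-Ay/J was 1 without its replicate 2. Il2ra, the CD25 chain against which the cells were sorted, stood at 477 and 369 in KK.Cg-Ay/J and 245 and 291 in DDY/JclSidSeyFrkJ against a reference range of 364 to 1124. DDY/JclSidSeyFrkJ lay below all reference strains in Il2ra, with a log2 difference of -1.39 (limma, adjusted p = 5.51e-09), and the difference was -0.74 in KK.Cg-Ay/J (limma, adjusted p = 0.00162). Il2rb, the beta chain, stood at 271 and 225 and at 184 and 242 against a median of 422. Il18r1, the interleukin 18 receptor, was lower in KK.Cg-Ay/J alone, at 168 and 187 against 239 to 711 in the reference and 593 and 612 in DDY/JclSidSeyFrkJ.

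Several regulatory T cell genes were lower in DDY/JclSidSeyFrkJ than in the reference mean. Of 18 genes measured, 6 were called lower and 0 higher there, with a median of -0.36, where 1.37 percent of bright probe sets were lower. The 6 were Il2ra, Ikzf2, Tnfrsf18, Tigit, Tnfrsf4 and Tnfrsf9, and the last 2 are also on the activated or memory list. Foxp3 and Ctla4, markers of regulatory T cells, were not among them. KK.Cg-Ay/J had 1 higher and 3 lower, with a median of -0.1, and 0 higher and 1 lower without its replicate 2. The list's mean log2 intensity was 7.30 and 7.43 on the DDY/JclSidSeyFrkJ arrays and 7.52 and 7.46 on the KK.Cg-Ay/J arrays. The reference range was 7.30 to 8.14, with a median of 7.7. Ikzf2, the transcription factor Helios, stood at 139 and 137 in DDY/JclSidSeyFrkJ against a median of 244, and Tnfrsf18, the receptor GITR, at 724 and 743 against 938. Without replicate 1 or without replicate 2 of DDY/JclSidSeyFrkJ the count of lower calls was 2. Whether DDY/JclSidSeyFrkJ sorts held fewer such cells or less of these transcripts per cell cannot be told apart in pooled RNA. Capg, an actin-capping protein gene on the same list, was low in KK.Cg-Ay/J, at 76.6 and 61.3 against 86.6 to 471, and stood at 247 and 250 in DDY/JclSidSeyFrkJ. In the direct contrast 0 of the 18 genes were higher in KK.Cg-Ay/J than in DDY/JclSidSeyFrkJ and 1, Capg, was lower. Of bright probe sets 1.53 percent were higher and 2.49 percent lower in that contrast.

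Insulin and nutrient signalling and fuel metabolism were examined because of the metabolic phenotype for which KK mice are known. Of 29 measured insulin and nutrient signalling genes, 3 were higher and 0 lower in KK.Cg-Ay/J, and 1 was higher in DDY/JclSidSeyFrkJ, where 3.79 and 2.82 percent of bright probe sets were higher. The DDY/JclSidSeyFrkJ count is near that share. With either array of the strain left out, the count was 2 in KK.Cg-Ay/J and 0 in DDY/JclSidSeyFrkJ. Igf1r, the insulin-like growth factor receptor, was called in both, at 500 and 455 in KK.Cg-Ay/J and 470 and 503 in DDY/JclSidSeyFrkJ against a median of 349, but within the reference range. Ptpn1, a phosphatase that turns off the insulin receptor, stood at 1406 and 1357 in KK.Cg-Ay/J, above a reference range of 906 to 1194, and at 1102 and 1009 in DDY/JclSidSeyFrkJ. Pdk1, a kinase that inhibits pyruvate dehydrogenase, stood at 1022 and 1267 in KK.Cg-Ay/J and 687 and 673 in DDY/JclSidSeyFrkJ against a median of 846. Its log2 difference from the reference mean in KK.Cg-Ay/J was 0.91 (limma, adjusted p = 2.2e-07). Both strains lay inside the reference range of 200 to 1436, with 12 reference strains above KK.Cg-Ay/J.

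Of 36 glucose and lipid genes, KK.Cg-Ay/J had 5 higher and 1 lower, DDY/JclSidSeyFrkJ 2 higher and 0 lower, and the medians were 0.07 and 0.05. The shares of bright probe sets were 3.79 percent higher and 3 percent lower in KK.Cg-Ay/J and 2.82 percent higher and 1.37 percent lower in DDY/JclSidSeyFrkJ. In the direct contrast 1 of the 36 genes, Pfkp, was higher in KK.Cg-Ay/J than in DDY/JclSidSeyFrkJ and 3 were lower, with a median of 0. Of bright probe sets 1.53 percent were higher and 2.49 percent lower in that contrast. Pfkp, a phosphofructokinase of glycolysis, stood at 721 and 789 in KK.Cg-Ay/J, above the reference range of 334 to 706. Acaca and Elovl6, of fatty acid synthesis and elongation, and Hmgcs1, of the cholesterol pathway, were higher by 0.42, 0.54 and 0.66 on the log2 scale in KK.Cg-Ay/J (limma, adjusted p = 0.00395, 0.000184 and 0.000303). None of them was called in the direct contrast with DDY/JclSidSeyFrkJ (limma, adjusted p = 0.115, 0.636 and 0.859). Ldhb, a lactate dehydrogenase subunit, was lower there, at 108 and 130 against a median of 217. DDY/JclSidSeyFrkJ had higher Scd2, a fatty acid desaturase, and higher Abca1, a cholesterol exporter, at 335 and 429 against a median of 254. Without KK.Cg-Ay/J replicate 2 the count of higher calls in KK.Cg-Ay/J was 1.

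The contrast of the strains with each other called 609 probe sets (2.44 percent), 238 higher in KK.Cg-Ay/J (0.955 percent) and 371 lower (1.49 percent), and 134 of them by at least 2-fold. The count was 360 without KK.Cg-Ay/J replicate 1, 400 without KK.Cg-Ay/J replicate 2 and 356 without DDY/JclSidSeyFrkJ replicate 2. Against the reference strains 1 by 1, KK.Cg-Ay/J differed in 561 to 4118 probe sets with a median of 950.5, and DDY/JclSidSeyFrkJ in 394 to 3383 with a median of 815. Both this count and the root mean square log2 difference depend by construction on the number of arrays in a group. C57BL/6J, with 5, was the third nearest group to both strains by the latter, and SWR/J, with 1, had the fewest called probe sets against both. By root mean square log2 difference DDY/JclSidSeyFrkJ was the second nearest of the 39 other groups to KK.Cg-Ay/J, at 0.252 after LGJ at 0.243. KK.Cg-Ay/J was the seventh nearest to DDY/JclSidSeyFrkJ, for which CBA/CaJ was nearest at 0.224. MSM/Ms and JF1/Ms lay at 0.369 and 0.364 from KK.Cg-Ay/J and at 0.371 and 0.356 from DDY/JclSidSeyFrkJ.

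Ifi208, Ifi214 and Aim2, of the p200 family of interferon-inducible genes that holds DNA sensors, were lower in KK.Cg-Ay/J than in DDY/JclSidSeyFrkJ. Ifi208 stood at 19.8 and 32.9 in KK.Cg-Ay/J and 492 and 628 in DDY/JclSidSeyFrkJ against a reference median of 653, a 21.8-fold difference (log2 -4.44, SE 0.26, limma, adjusted p = 4.95e-19). Ifi214 stood at 100 and 61.9 against 1513 and 1549, and Aim2, the sensor that starts an inflammasome on cytosolic DNA, at 202 and 219 against 433 and 467. Of the 7 family genes measured, 3 were lower in KK.Cg-Ay/J than in DDY/JclSidSeyFrkJ and 0 were higher, also when any 1 of the 4 arrays was left out, where 2.49 percent of bright probe sets were lower. KK.Cg-Ay/J was at the low end of the reference but not below it in Ifi208 and Ifi214, where 2 and 5 reference strains were lower. With Ifi207, which was not among the 3 list calls, Ifi208, Ifi214 and Aim2 formed a run of 4 neighbours, all lower in KK.Cg-Ay/J. A gene entered a run by a call of any of its probe sets, whereas list genes were read from their brightest.

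Schlafen genes, which restrain T cell proliferation and viral replication, differed in both directions inside 1 cluster. Slfn8 stood at 43.3 and 28.9 in KK.Cg-Ay/J and 807 and 796 in DDY/JclSidSeyFrkJ, a 22.6-fold difference (log2 -4.5, SE 0.24, limma, adjusted p = 9.67e-21). Slfn4, its near neighbour, stood the other way, at 403 and 511 in KK.Cg-Ay/J and 64.0 and 74.3 in DDY/JclSidSeyFrkJ. Slfn1 stood at 1266 and 1431 in KK.Cg-Ay/J and 2663 and 3174 in DDY/JclSidSeyFrkJ, lower in the former. The members of this family are alike in sequence, and whether their probe sets read them apart was not tested. Nlrp1a, an inflammasome sensor gene, stood at 163 and 141 in KK.Cg-Ay/J and 31.1 and 28.5 in DDY/JclSidSeyFrkJ, and ran with its neighbours Nlrp1b and Nlrp1c-ps, all higher in KK.Cg-Ay/J.

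Gdpd3, a lysophospholipase D gene, had the largest difference between the strains among genes higher in KK.Cg-Ay/J. It stood at 1948 and 2164 in KK.Cg-Ay/J and 63.9 and 74.2 in DDY/JclSidSeyFrkJ, a 29.8-fold difference (log2 4.9, SE 0.16, limma, adjusted p = 7.44e-30). The reference strains had a median of 77.5, and 9 of them exceeded KK.Cg-Ay/J. St6galnac2, a sialyltransferase gene, stood at 579 and 574 against 123 and 132, Btbd3 at 263 and 257 against 68.7 and 52.4, and Vmn2r96, annotated as a pheromone receptor gene, at 256 and 389 against 38.5 and 75.7. Col6a3, a collagen VI chain, had a mean of 451 in KK.Cg-Ay/J, above all reference strains, and stood at 113 and 103 in DDY/JclSidSeyFrkJ. Pdlim4, a LIM domain protein of the cytoskeleton, stood at 440 and 495 in KK.Cg-Ay/J, like the reference median of 497, and at 109 and 113 in DDY/JclSidSeyFrkJ, below every reference strain. Snord53, a small nucleolar RNA, stood at 2518 and 4365 against 649 and 799.

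Genes lower in KK.Cg-Ay/J than in DDY/JclSidSeyFrkJ included some in which KK.Cg-Ay/J lay inside the reference range. Pde5a, the cyclic GMP phosphodiesterase, stood at 403 and 459 in DDY/JclSidSeyFrkJ and 59.7 and 63.8 in KK.Cg-Ay/J against a reference median of 49.6. A set of 8 reference strains was also high in Pde5a, from 239 to 458, 1 of them above DDY/JclSidSeyFrkJ, and the other reference strains reached 56.2 at most. Echdc2, a mitochondrial hydratase gene, stood at 458 and 355 in DDY/JclSidSeyFrkJ and 91.9 and 100 in KK.Cg-Ay/J, and the reference ended at 240. In Sdhd the strains differed by -1.94 (SE 0.15, limma, adjusted p = 2.15e-14).

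In others KK.Cg-Ay/J was low. Cxcr2, the receptor of neutrophil-attracting chemokines, stood at 28.6 and 28.3 in KK.Cg-Ay/J and 166 and 205 in DDY/JclSidSeyFrkJ. The mean log2 intensity of the 16 neutrophil genes was 5.47 and 5.36 on the former arrays and 5.67 and 5.53 on the latter, with 5.45 as the lowest reference strain. Cxcr2 is itself 1 of the 16, so these means include its own difference. The median difference between the strains over the list was -0.05. A part of neutrophil transcripts in the Cxcr2 result was not tested. Rasgrf2, a Ras exchange factor, stood at 54.2 and 47.2 against 218 and 249, and Pacsin1, a membrane-bending protein, at 144 and 129 against 523 and 518. The other genes named by the rule were Zfp607a at 40.3 and 63.5 against 269 and 272, Zfp931 at 17.8 and 23.7 against 73.6 and 95.1 (limma, adjusted p = 0.0519 without KK.Cg-Ay/J replicate 1), and Zfp979 at 7.88 and 9.79 against 118 and 198. Most reference strains were as low as KK.Cg-Ay/J in Zfp979, with a median of 9.82.

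**Figure D4:**
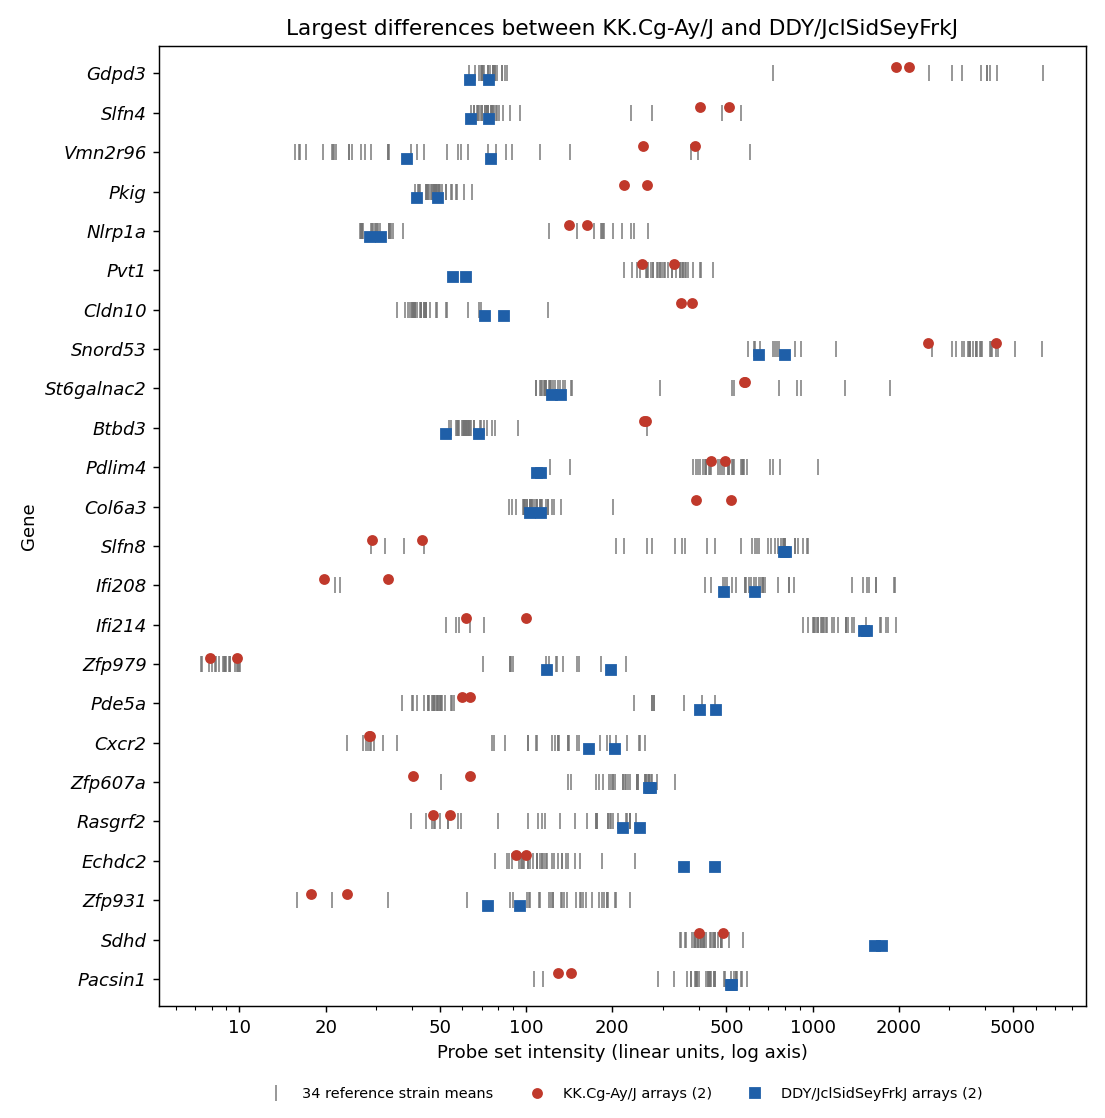
Probe set intensity (log axis) of the 12 genes with the largest differences each way between KK.Cg-Ay/J (circles, 2 arrays) and DDY/JclSidSeyFrkJ (squares, 2 arrays), with the 34 reference strain means (ticks). The arrays of the 2 strains do not overlap in any of these genes, and for Gdpd3, Slfn8 and Ifi208 each strain lies among reference strains, whereas Sdhd and Echdc2 in DDY/JclSidSeyFrkJ lie above all of them.

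Of 23 naive T cell genes, 2 were higher and 1 lower in KK.Cg-Ay/J than in DDY/JclSidSeyFrkJ, and of 35 activated or memory T cell genes 0 were higher and 3 lower, where 1.53 and 2.49 percent of bright probe sets were. The 2 became 0 without DDY/JclSidSeyFrkJ replicate 1, and the 3 became 1 without KK.Cg-Ay/J replicate 1 and 1 without DDY/JclSidSeyFrkJ replicate 2. Dapl1, a gene of naive T cells, stood at 2550 and 2396 in KK.Cg-Ay/J, below the reference range of 3324 to 9733, and at 6445 and 7248 in DDY/JclSidSeyFrkJ (log2 difference -1.47, limma, adjusted p = 3.32e-12). Ly6e, a surface protein induced by interferon, stood at 5831 and 6038 in KK.Cg-Ay/J and 1546 and 1736 in DDY/JclSidSeyFrkJ against a median of 5184. S1pr1, the receptor with which T cells leave lymphoid organs, stood at 3605 and 3997 in KK.Cg-Ay/J, above the reference range of 2572 to 3555, and at 2842 and 2997 in DDY/JclSidSeyFrkJ. Itgal, the integrin chain CD11a, was likewise above the range in KK.Cg-Ay/J, at 2063 and 2193 against a highest reference mean of 1948. Cd44, which marks activated and memory cells, stood at 162 and 171 in KK.Cg-Ay/J and 232 and 216 in DDY/JclSidSeyFrkJ (log2 difference -0.42, limma, adjusted p = 0.0169).

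A list of immediate early and stress genes held 9 that were higher in KK.Cg-Ay/J than in DDY/JclSidSeyFrkJ. Immediate early genes are those that T cells switch on within minutes of receptor signals. Of 35 genes measured, 9 passed the threshold in that direction and 0 in the other, with a median of 0.23 against -0.01 over all probe sets. Among all probe sets with a mean above the median of all values, where 29 of the 35 lay, 1.53 percent were higher in KK.Cg-Ay/J. Nr4a1, the nuclear receptor Nur77, stood at 657 and 769 in KK.Cg-Ay/J and 323 and 348 in DDY/JclSidSeyFrkJ (log2 difference 1.08, limma, adjusted p = 5.19e-05). Egr2, a zinc finger transcription factor, stood at 345 and 404 against 169 and 227, and Egr1 at 695 and 685 against 393 and 467. Dusp6, a phosphatase that limits ERK signalling, stood at 405 and 440 against 194 and 237.

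Against the reference strains, 6 of the 35 genes were higher in KK.Cg-Ay/J and 6 were lower in DDY/JclSidSeyFrkJ, where 3.79 and 1.37 percent of bright probe sets were, and most values of both strains lay inside the reference range. Both arrays of DDY/JclSidSeyFrkJ lay below all reference strain means in Egr2, which ran from 235 to 421. The 9 calls between the strains became 4 without KK.Cg-Ay/J replicate 2 and 4 without DDY/JclSidSeyFrkJ replicate 1. The 6 lower calls in DDY/JclSidSeyFrkJ became 0 without its replicate 1. The 6 higher calls in KK.Cg-Ay/J became 1 and 0 without its replicates 1 and 2, and 2 after quantile normalization.

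**Figure D5:**
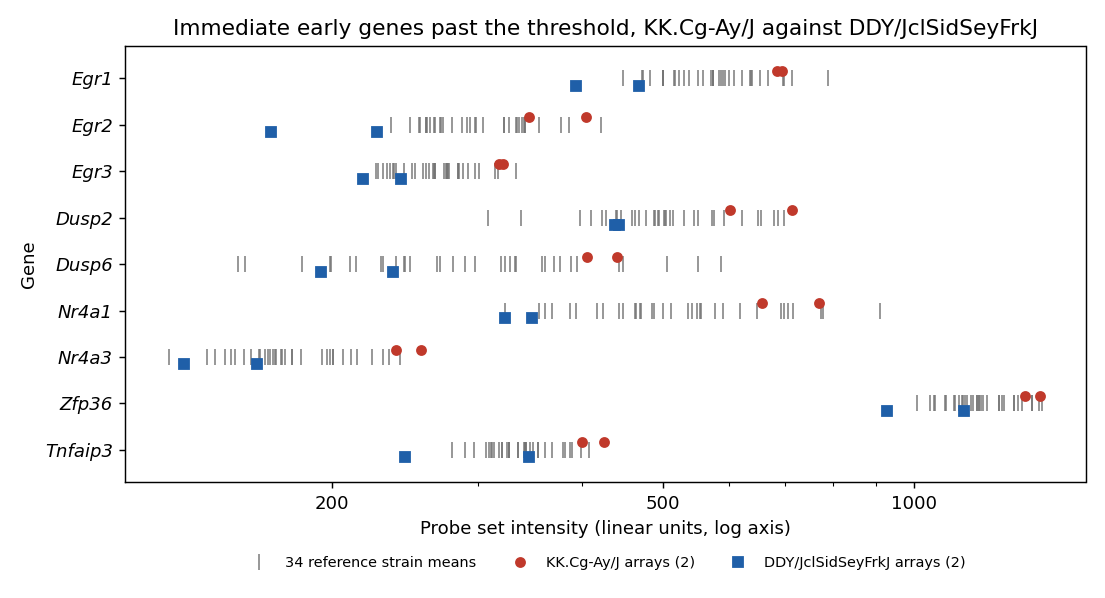
Probe set intensity (log axis) of the 9 genes of the immediate early and stress list that were higher in KK.Cg-Ay/J (circles, 2 arrays) than in DDY/JclSidSeyFrkJ (squares, 2 arrays), with the 34 reference strain means (ticks). The arrays of the 2 strains do not overlap in any of the 9 genes, and DDY/JclSidSeyFrkJ replicate 1 is the lowest of the 4 arrays in all of them except Dusp2.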

How the data were processed

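Naive CD4 T cells of 40 strain groups were measured on Affymetrix ST1.0 arrays. The deposited table held linear intensities of 24922 probe sets on 82 arrays, made by the authors with RMA and Affymetrix Power Tools per the submitters' processing notes, with versions not given in the sources used here. Array medians ran from 102 to 142. Values were taken to log2 without further normalization or filter. Groups followed the background label. Arrays titled C57BR or DBA2, whose background label differs, were kept as groups of their own, and SWR/J had 1 array. The age in the labels, 6 weeks, differs from that in the series text. Per the series text the pools are biological replicates, so the tests rest on differences among pools or among strains. The tests used limma (3.58.1, run in R 4.3.3): an array-level fit of 40 groups (42 residual degrees of freedom, prior 8.09) and a fit on strain means (34 residual degrees of freedom, prior 4.04), with Benjamini-Hochberg adjustment across the whole table and a threshold of 0.05. Both fits were also run on simulated data with known changes, and the results above do not rest on that run.

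Of the probe sets, 21425 had 1 gene symbol, 1399 several and 2098 none, and only the first were named. Gene order came from GRCm38.p6. Named genes had an established name and a highest group mean above the median of all values: the 12 largest each way for shared genes (by the smaller difference) and between the strains, up to 12 each way on strain means, up to 8 each way outside the reference range, the genes of the Ay region, and up to 4 called members per list and comparison. Each list gene was read from its brightest probe set. The members, lists and tests were chosen with earlier results of these data known. Probes were designed on a reference sequence, so strain variants under a probe can lower its signal, which was not tested.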

Additional observations from a re-analysis of the deposited data

Results flagged for a closer look

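In 8 genes named above, KK.Cg-Ay/J and DDY/JclSidSeyFrkJ differed from each other by the direct contrast (limma, adjusted p under 0.05), although the genes were named for the pair, for both strains or for lying outside the reference range. The direct log2 contrast of KK.Cg-Ay/J minus DDY/JclSidSeyFrkJ was 2.44 for Cldn10, 1.19 for Slpi, 0.73 for Slc14a1 and 0.66 for Wee1, where both strains were higher than the reference and KK.Cg-Ay/J further from it. It was -0.42 for Rcan3, lower in both strains and lowest in KK.Cg-Ay/J. Pkig (2.42) was high in KK.Cg-Ay/J alone, Sdhd (-1.94) was high in DDY/JclSidSeyFrkJ alone, and Pvt1 (2.3) was low in DDY/JclSidSeyFrkJ alone.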

How the results depend on the processing

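Counts of the array-level tests moved with the number of arrays more than with the other choices. The count for the pair on strain means moved further when a reference strain was left out than when an array was. With each of the 4 arrays left out in turn, the counts of called probe sets ran from 334 to 1016 in KK.Cg-Ay/J against the reference, from 239 to 721 in DDY/JclSidSeyFrkJ against the reference, from 92 to 147 for both strains the same way, from 356 to 460 between the strains and from 13 to 19 for the pair on strain means. Leaving out each reference strain in turn gave 10 to 17 for the pair. The named calls lost in such fits were Ncmap in 29 of 34, Pkig in 23, Pvt1 in 3 and M1ap in 2. All these counts stayed within 1.5 times of the main ones under quantile normalization, median centring, a filter on the dimmest 40 percent, an offset of 32 before log2, a trended and robust prior, fitting the 36 groups alone, leaving out WSB/EiJ or 2 reference arrays with B cell and erythroid markers, and 1 probe set per symbol. Median centring left 11 higher and 1 lower for the pair. Of 60 calls of named genes, 56 held under every one of these settings, the exceptions being Ncmap, Pkig, Pvt1 and Ascl3 on strain means, and 49 held with each of the 4 arrays left out. On strain means Pkig turned from 1.1 to -0.11 with DDY/JclSidSeyFrkJ alone against the reference. The list counts were recomputed without each array, with quantile normalization and with median centring, settings chosen after seeing the data. The replicate numbers share no stated animal or day: deviations from the strain means correlated at 0.477 between KK.Cg-Ay/J and DDY/JclSidSeyFrkJ, but between -0.626 and 0.567 over 630 pairs of groups. With the replicate number as a block the counts were 1048, 763, 202, 630 and 15 in the order above, and no call of a named gene changed. With 2 arrays a strain, the number of arrays limits the precision, and a shared difference on the array-level test says that 2 strains differ from a reference mean, not that they stand outside the strains' own spread.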
